A study of Mus musculus with 9 samples.

Results

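Lymphocyte marker genes were followed in brown adipose tissue (BAT) of mice held at room temperature or in acute cold. The list held 34 genes chosen by symbol: the chains of the T cell receptor (TCR) complex, T cell coreceptors and signalling proteins, transcription factors of T and innate lymphoid cells, B cell receptor genes and genes of natural killer (NK) and cytotoxic cells. Of these 34 genes, 26 were listed in at least 1 of the 3 deposited tables and 17 in all 3, among 16937 genes in all. The 8 genes Cd8b1, Cd5, Cd6, Cd27, Cd28, Blk, Prf1 and Ncr1 were listed in no table, so they have no value here.

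T and B cells recognise antigen through receptors that rely on partner chains to signal. In T cells the CD3 chains and the zeta chain carry the tyrosine motifs that Lck phosphorylates and Zap70 binds, and in B cells CD79A and CD79B do the same work for the surface antibody. NK cells and cytotoxic T cells kill by releasing granzymes from granules, and they depend on IL-2 and IL-15 signals, whereas T cells and innate lymphoid cells at rest depend on IL-7. BAT holds small resident populations of all of these cells among its adipocytes, endothelial cells and macrophages.

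RNA was sequenced from the BAT of 9 mice, 3 in each group. WT RT mice were wild type and stayed at 23 °C, WT Cold mice were wild type and spent 8 h at 4 °C, and GCN2 KO Cold mice carried a whole-body Gcn2-/- deletion and spent the same time in the same cold. All were on the C57Bl/6J background, 12 to 23 weeks old, reared at 23 °C and housed individually for 5 days beforehand, and each group held males and females. GCN2 KO mice at room temperature were not analysed here, so the effect of genotype was seen in the cold alone. Since the deletion was whole-body, it was carried by lymphocytes as well as by adipocytes.

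The libraries held 27058799 to 30768064 reads on the listed genes, and no table listed a gene with under 61 reads in total. The columns carried library codes and no mouse numbers, so the letters A, B and C name the libraries of a group, sorted by code. WT RT codes began with other letters than the cold codes, so effects of cold and of library set cannot be told apart. Eif2ak4, the gene for GCN2, had 11.1 to 13.0 CPM (reads scaled to a common library total) in WT RT, 6.46 to 8.34 in WT Cold and 11.8 to 12.7 where the label was GCN2 KO Cold. All 3 libraries of the latter were above those of WT Cold, at 170% of the mean (log2 fold change 0.78 ± 0.15 SE), with adjusted p values of 0.0932 by limma, 0.0914 by edgeR and 0.00286 by DESeq2. The values count reads over the whole gene and the deleted exons were not given, so this count does not check the genotype labels. The title of 1 of the 3 GCN2 KO Cold samples reads both GCN2 KO and WT. Its genotype entry, GCN2 KO, was used, and the codes do not show which library it is, so no value here could be given without it.

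The lymphocyte marker genes were rare transcripts in every library. The 25 genes listed in tables that cover all 3 groups had 1334, 1742 and 1119 reads together in WT RT A, B and C, 881, 708 and 778 in WT Cold A, B and C, and 694, 883 and 642 in those labelled GCN2 KO Cold. The sums of both cold groups lay below all 3 sums of WT RT. On the CPM scale the sum was 45.7 ± 10.1 (SD, n = 3) in WT RT and 27.4 ± 2.93 for WT Cold, and GCN2 KO Cold had 26.5 ± 3.69, or 59.8% and 58.0% of WT RT. Thy1, Cd8a and Gata3 can also be made by other cells of adipose tissue, and Jchain belongs to antibody-secreting cells. Without these 4 genes the sums were 54.1% (WT Cold) and 58.1% (GCN2 KO Cold) of that in WT RT. Cd3e, Cd3g, Cd247, Lef1, Nkg7, Klrd1, Gzma and Gzmb had 42 to 60 reads over the 6 cold libraries. These genes entered the sums through WT RT, which weighs toward lower shares in the cold groups. In whole tissue, fewer cells of a type and less RNA per cell cannot be told apart.

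Per length of transcript, Thy1, a surface glycoprotein of mouse T cells that fibroblasts and neurons also carry, had the highest level of the list in WT RT, 4.43 RPKM (CPM per kilobase of exon). Cd8a, Gzmb, Jchain, Gzma and Nkg7 followed with 1.35, 1.34, 1.25, 1.17 and 1.05 RPKM, and differed among themselves by less than the spread between libraries. Next came Cd79a and Il7r with 0.868 and 0.865 RPKM, and Lef1 had the lowest level, 0.0534 RPKM. In WT Cold the order was Thy1 (2.75 RPKM), Cd79a (1.05), Jchain (0.936) and Cd8a (0.756), while Gzmb stood at 0.201 RPKM and Gzma at 0.150. In GCN2 KO Cold it was Thy1 (2.33 RPKM), Cd8a (1.01), Cd79a (0.991) and Cd79b (0.931). The B cell gene Cd79a therefore stood behind 6 of the T, NK and antibody-secreting cell genes in WT RT and behind no other member than Thy1 in WT Cold, a description that was not tested.

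**Figure D1:**
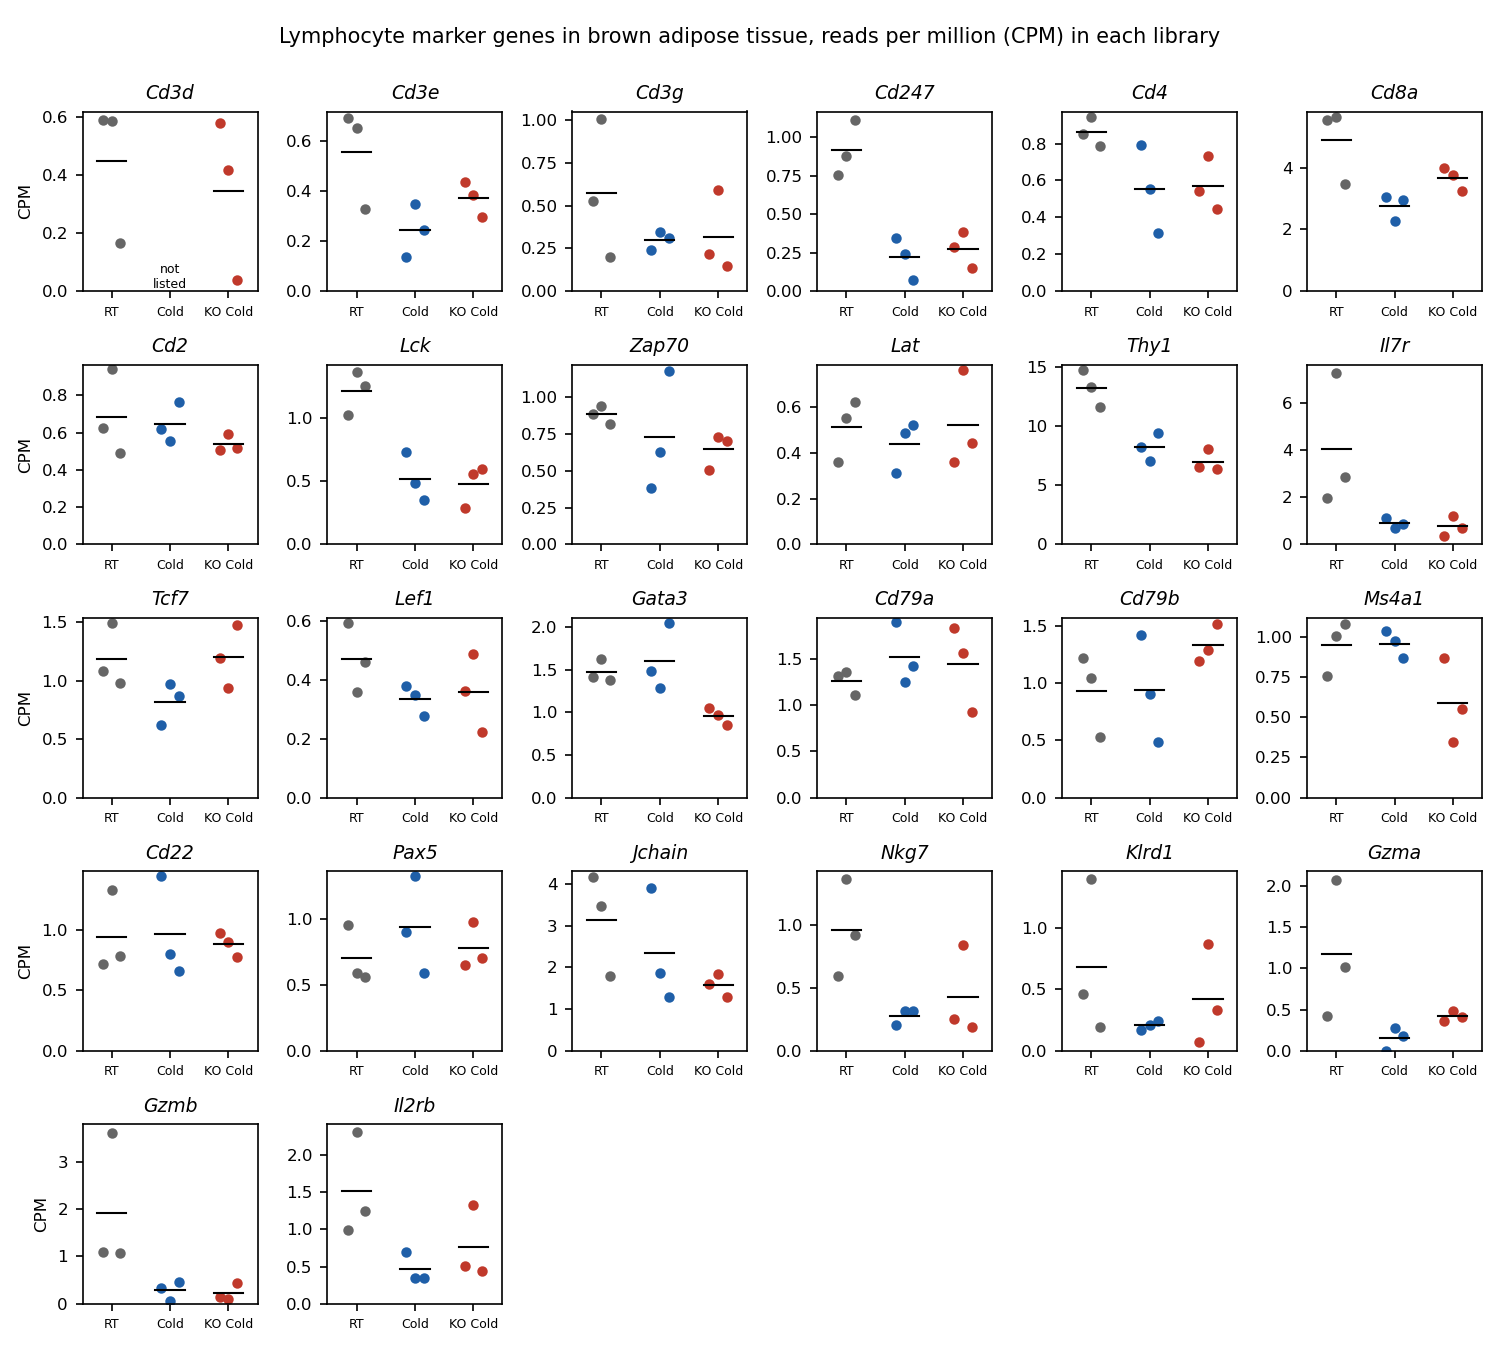
Level in CPM (vertical axes from 0) of each of the 26 listed lymphocyte marker genes, 1 panel a gene, in WT RT (RT, grey), WT Cold (Cold, blue) and GCN2 KO Cold (KO Cold, red); points are libraries A, B and C from left to right and lines are means of 3. Il7r reached 224 reads in WT RT B and at most 35 in any cold library, whereas the panels of Cd79a, Cd22 and Pax5 overlap between groups, and Cd3d, which neither table with WT Cold lists, has no WT Cold points.

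Promoter sequences are shown for the 4 genes that were lower in both cold groups than in WT RT and, for contrast, for the B cell gene Cd79a, which was not. They are the 250 bases before each RefSeq transcription start on GRCm38.p6, which is not the build of the deposited tables (GRCm39). Capitals mark matches, on either strand, to 5 motifs bound by transcription factor families at work in lymphocytes. GGAAG is the core of sites for ETS factors. TGTGGT is that of RUNX factors. CAGGTG is an E-box bound by E proteins. AGATAA is a site for GATA factors such as Gata3. CTTTGA is a site for Tcf7 and Lef1. None of the 5 motifs is contained in another. Cd247 lies at chr1:165788431-165788680 on the plus strand, Lck has an upstream start at chr4:129573642-129573891 and a downstream start at chr4:129558373-129558622 on the minus strand, Il7r lies at chr15:9529877-9530126 and Gzmb at chr14:56262335-56262584 on the minus strand, and Cd79a at chr7:24897247-24897496 on the plus strand.
Cd247: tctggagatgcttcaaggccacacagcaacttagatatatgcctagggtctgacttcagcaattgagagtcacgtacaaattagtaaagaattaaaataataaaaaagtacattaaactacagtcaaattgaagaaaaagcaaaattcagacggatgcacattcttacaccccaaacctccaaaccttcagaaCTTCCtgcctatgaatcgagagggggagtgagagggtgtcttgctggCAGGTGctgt
Lck, upstream start: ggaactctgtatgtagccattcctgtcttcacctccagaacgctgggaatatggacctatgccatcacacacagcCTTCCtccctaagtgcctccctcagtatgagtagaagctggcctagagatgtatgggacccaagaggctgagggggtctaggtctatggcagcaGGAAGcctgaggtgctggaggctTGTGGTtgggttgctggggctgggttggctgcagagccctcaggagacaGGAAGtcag
Lck, downstream start: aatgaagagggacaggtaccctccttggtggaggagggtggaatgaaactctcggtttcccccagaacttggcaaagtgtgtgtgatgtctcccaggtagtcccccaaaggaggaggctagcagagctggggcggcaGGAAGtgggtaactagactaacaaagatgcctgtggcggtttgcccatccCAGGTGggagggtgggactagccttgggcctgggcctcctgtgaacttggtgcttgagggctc
Il7r: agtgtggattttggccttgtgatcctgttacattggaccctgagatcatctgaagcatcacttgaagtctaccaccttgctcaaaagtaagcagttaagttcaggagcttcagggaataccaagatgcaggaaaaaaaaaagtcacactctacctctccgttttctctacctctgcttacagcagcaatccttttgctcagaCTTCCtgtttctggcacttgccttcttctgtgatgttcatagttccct
Gzmb: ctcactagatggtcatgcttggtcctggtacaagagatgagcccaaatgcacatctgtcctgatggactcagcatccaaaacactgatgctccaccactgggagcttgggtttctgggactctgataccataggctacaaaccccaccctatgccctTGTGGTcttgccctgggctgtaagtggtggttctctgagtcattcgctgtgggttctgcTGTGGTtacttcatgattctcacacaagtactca
Cd79a: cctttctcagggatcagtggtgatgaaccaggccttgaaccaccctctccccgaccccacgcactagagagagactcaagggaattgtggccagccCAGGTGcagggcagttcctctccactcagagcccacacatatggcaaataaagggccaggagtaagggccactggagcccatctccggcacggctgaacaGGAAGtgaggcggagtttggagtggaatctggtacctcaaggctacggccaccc

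The table of promoters matched 23 of the 34 members, with 31 start sites. GGAAG was found in 21 of these 31 promoters (67.7%) and in 64.1% of all 32851 promoters. TGTGGT was found in 8 (25.8%) against 14.0%, CAGGTG in 11 (35.5%) against 17.2%, AGATAA in 1 (3.23%) against 9.99%, and CTTTGA in 3 (9.68%) against 13.8%. In the sequences above, Gzmb held TGTGGT 2 times and no GGAAG, the upstream start of Lck held GGAAG 3 times and TGTGGT 1 time, and Il7r held a single GGAAG. Cd79a held GGAAG and CAGGTG 1 time each, as Cd247 did. A match is a description of the letters and not of binding.

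The comparison of WT Cold with WT RT asked how acute cold changed these genes in wild-type BAT. Of 25 members tested, 6 were lower in WT Cold and 0 were higher past both thresholds, which were 0.05 for the adjusted p and 1 for the size of the log2 fold change (limma on log2(normalized count + 1)). Of all 16679 genes 5.15% were lower and 2.99% higher by the same rule, and of those with a mean normalized count under 50, as most members had, 6.11% were lower. The 6 genes were Cd247 of the TCR complex, the kinase gene Lck, the IL-7 receptor gene Il7r, and Nkg7, Gzmb and Il2rb of NK and cytotoxic cells. None of the 5 B cell genes tested was among them. The median log2 fold change of the members was -0.55, with 18 values below 0 and 7 above, beside a median of 0.00 over all genes. The groups did not overlap, with WT Cold lower, for 10 members, and the same was true of 22.8% of all genes. The members that were tested are those with enough reads to be listed, so a gene low in the cold libraries could enter through WT RT alone.

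Among the genes of the TCR complex, Cd247 (ENSMUSG00000005763), which encodes the zeta chain, had 23, 27 and 34 reads in WT RT A, B and C and 10, 7 and 2 in WT Cold. Every WT Cold library was below every WT RT library, and the gene fell by 2.01 on the log2 scale (SE 0.53, limma adjusted p = 0.0260). Cd3e, the epsilon chain, had 21, 20 and 10 reads in WT RT and 4, 10 and 7 in WT Cold. Cd3g, the gamma chain, had 16, 31 and 6 reads against 7, 10 and 9. Both sets overlapped, and the log2 fold changes of -1.02 for Cd3e and -0.55 for Cd3g did not pass (limma adjusted p = 0.142 and 0.496). The summed level of the 3 genes in WT Cold was 37.2% of that in WT RT, with all 3 libraries lower. Over the 6 cold libraries Cd3e, Cd3g and Cd247 had 52, 53 and 42 reads, under the 61 of the least covered gene listed. These genes were therefore listed through WT RT, which weighs toward a low share in the cold.

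The coreceptor gene Cd8a, which marks cytotoxic T cells and some dendritic cells, had 169, 174 and 106 reads in WT RT and 88, 65 and 85 in WT Cold. The groups did not overlap, and the log2 fold change of -0.72 (SE 0.23) missed the threshold with a limma adjusted p of 0.0517. Its partner chain Cd8b1 was listed in no table. Cd4, the coreceptor of helper T cells, had 26, 29 and 24 reads against 23, 16 and 9, with each WT Cold library below each WT RT library in reads but not after normalization, and a log2 fold change of -0.61 (limma adjusted p = 0.260). Cd2, an adhesion receptor of T and NK cells, had 19, 29 and 15 reads against 18, 16 and 22, and its normalized means, 19.5 and 19.7, were close.

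Of the proximal signalling genes, Lck (ENSMUSG00000000409), the kinase that phosphorylates the CD3 chains, had 31, 42 and 38 reads in WT RT and 21, 14 and 10 in WT Cold. The groups did not overlap, and Lck fell by 1.14 on the log2 scale (SE 0.34, limma adjusted p = 0.0413). DESeq2 on the recovered reads gave Lck an adjusted p of 0.0596 and so did not call it. Zap70, the kinase recruited next, had 27, 29 and 25 reads against 11, 18 and 34, and WT Cold C was the highest of all 6 libraries. Lat, the adaptor that Zap70 phosphorylates, had 11, 17 and 19 reads against 9, 14 and 15, with overlapping groups. Their log2 fold changes, -0.32 for Zap70 and -0.13 for Lat, had standard errors of 0.43 and 0.39.

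In the class of T cell and innate lymphoid identity genes, Il7r (ENSMUSG00000003882), the alpha chain of the IL-7 receptor, had 60, 224 and 87 reads in WT RT and 32, 20 and 25 in WT Cold. Il7r fell by 1.86 on the log2 scale (SE 0.46, limma adjusted p = 0.0206), and every WT Cold library was below every WT RT library. WT RT B was far above its group, and without it the log2 fold change was -1.34 with a limma adjusted p of 0.0391. Thy1 had 451, 411 and 354 reads in WT RT and 238, 203 and 271 in WT Cold, again without overlap. Thy1 passed the adjusted p alone, at a log2 fold change of -0.60 (SE 0.15, limma adjusted p = 0.0216), as 14.1% of all genes did on the lower side.

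The remaining identity genes encode transcription factors. Tcf7, the factor TCF-1 of naive and memory T cells, had 33, 46 and 30 reads in WT RT and 18, 28 and 25 in WT Cold, without overlap but with a limma adjusted p of 0.324. Lef1, its close relative, had 18, 11 and 14 reads against 11, 10 and 8, and the groups overlapped after normalization. Gata3, the factor of type 2 helper and innate lymphoid cells, had 43, 50 and 42 reads against 43, 37 and 59, with the groups interleaved. The log2 fold changes of the latter pair were -0.35 and 0.18.

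The NK and cytotoxic genes had the lowest share of the WT RT level of any class, 22.2% in WT Cold, and WT RT B carried much of that level. Without WT RT B the share was 34.6%, beside 42.3% for the TCR complex. The same class was at 36.0% for GCN2 KO Cold with WT RT B and at 56.3% without it, and without it the TCR complex, identity and antibody-secreting classes were lower, at 53.3%, 55.3% and 52.7%. Nkg7, Klrd1, Gzma and Gzmb had 13 to 25 reads each over all 3 WT Cold libraries and 63 to 177 over WT RT, so they were listed through WT RT, where they were high. The summed genes of the TCR complex were listed in the same way. Gzmb (ENSMUSG00000015437), the granule protease granzyme B, had 33, 111 and 33 reads in WT RT and 10, 2 and 13 in WT Cold, and fell by 2.56 on the log2 scale (SE 0.70, limma adjusted p = 0.0301). Nkg7 (ENSMUSG00000004612), a granule membrane protein, had 18, 42 and 28 reads against 6, 9 and 9 and fell by 1.54 (SE 0.41, limma adjusted p = 0.0275). Il2rb (ENSMUSG00000068227), the chain shared by the IL-2 and IL-15 receptors, had 30, 71 and 38 reads against 20, 10 and 10 and also fell by 1.54 (SE 0.42, limma adjusted p = 0.0296). None of the 3 genes overlapped between groups, and WT RT B was the highest library for each. Without WT RT B their log2 fold changes were -2.01, -1.27 and -1.21, and their limma adjusted p values of 0.0988, 0.0998 and 0.0985 missed the threshold.

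Gzma, the granule protease granzyme A, had 13, 64 and 31 reads in WT RT and 0, 8 and 5 in WT Cold. The groups did not overlap, and the log2 fold change of -2.88 had a large standard error of 0.92 and a limma adjusted p of 0.0505. edgeR and DESeq2 on the recovered reads gave Gzma adjusted p values of 0.0443 and 0.00642, so both called it. Klrd1, the CD94 chain of NK cell receptors, had 14, 43 and 6 reads against 5, 6 and 7, and WT RT C lay among the WT Cold libraries (log2 fold change -1.11, limma adjusted p = 0.235).

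The B cell genes did not pass in either direction, and their mean normalized counts in WT Cold ran from 107% (Ms4a1) to 142% (Pax5) of those in WT RT. Cd79a, a signalling chain of the B cell receptor, had 40, 42 and 34 reads in WT RT and 55, 36 and 41 in WT Cold, and its partner Cd79b had 37, 32 and 16 against 41, 26 and 14. Ms4a1, which encodes CD20, had 23, 31 and 33 reads against 30, 28 and 25. Cd22, an inhibitory receptor, had 22, 41 and 24 against 42, 23 and 19, and Pax5, the B lineage transcription factor, had 29, 18 and 17 against 26, 38 and 17. The groups overlapped for all 5 genes, whose log2 fold changes ran from 0.05 to 0.46. With library totals in place of size factors that of Cd79b was -0.03, and the summed CPM of the 5 genes in WT Cold was 111% of that in WT RT. Jchain, the joining chain of secreted IgA and IgM, had 127, 107 and 55 reads in WT RT and 113, 54 and 37 in WT Cold, with overlapping groups and a log2 fold change of -0.40 (SE 0.43). The difference between the response of the B cell genes and that of the T or NK genes was not tested.

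**Figure D2:**
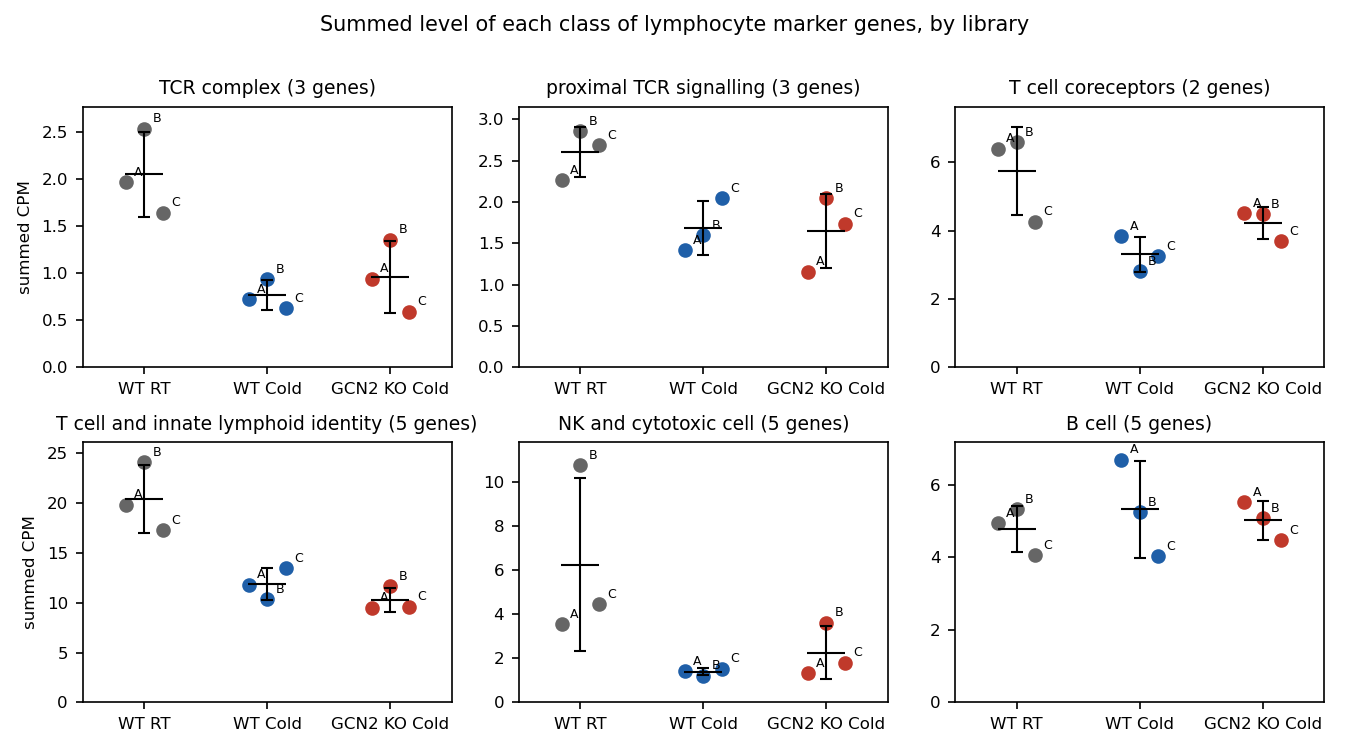
Summed CPM (vertical axes from 0) of 6 classes of lymphocyte marker genes in each library, lettered A, B and C, with the mean and SD of 3 libraries per group. All cold libraries lie below all WT RT libraries for the TCR complex, proximal signalling and identity classes, GCN2 KO Cold B (3.62) lies just above WT RT A (3.55) for the NK and cytotoxic class, and the B cell class overlaps throughout. The genes of the TCR complex panel were listed through WT RT, as were Lef1, Nkg7, Klrd1, Gzma and Gzmb.

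How many members passed depended on which libraries entered. Without WT Cold B, WT RT B or WT RT C 1 of 25 members was called each time, beside 4.11%, 3.95% and 4.39% of all genes on the lower side, so that these counts were near the background. Without WT RT A 3 members were called (4.27% of all genes), without WT Cold A 4 (4.26%) and without WT Cold C 6 (6.94%). The gene called without WT Cold B was Gzma, and the one called without WT RT B or without WT RT C was Il7r. Il7r was called in 5 of the 6 fits that left out a library, Il2rb in 3, Cd247 and Nkg7 in 2, and Lck and Gzmb in 1. edgeR without WT RT B also left 1 member, Il7r. Among the 4 members whose mean normalized count reached 50, Il7r passed.

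**Figure D3:**
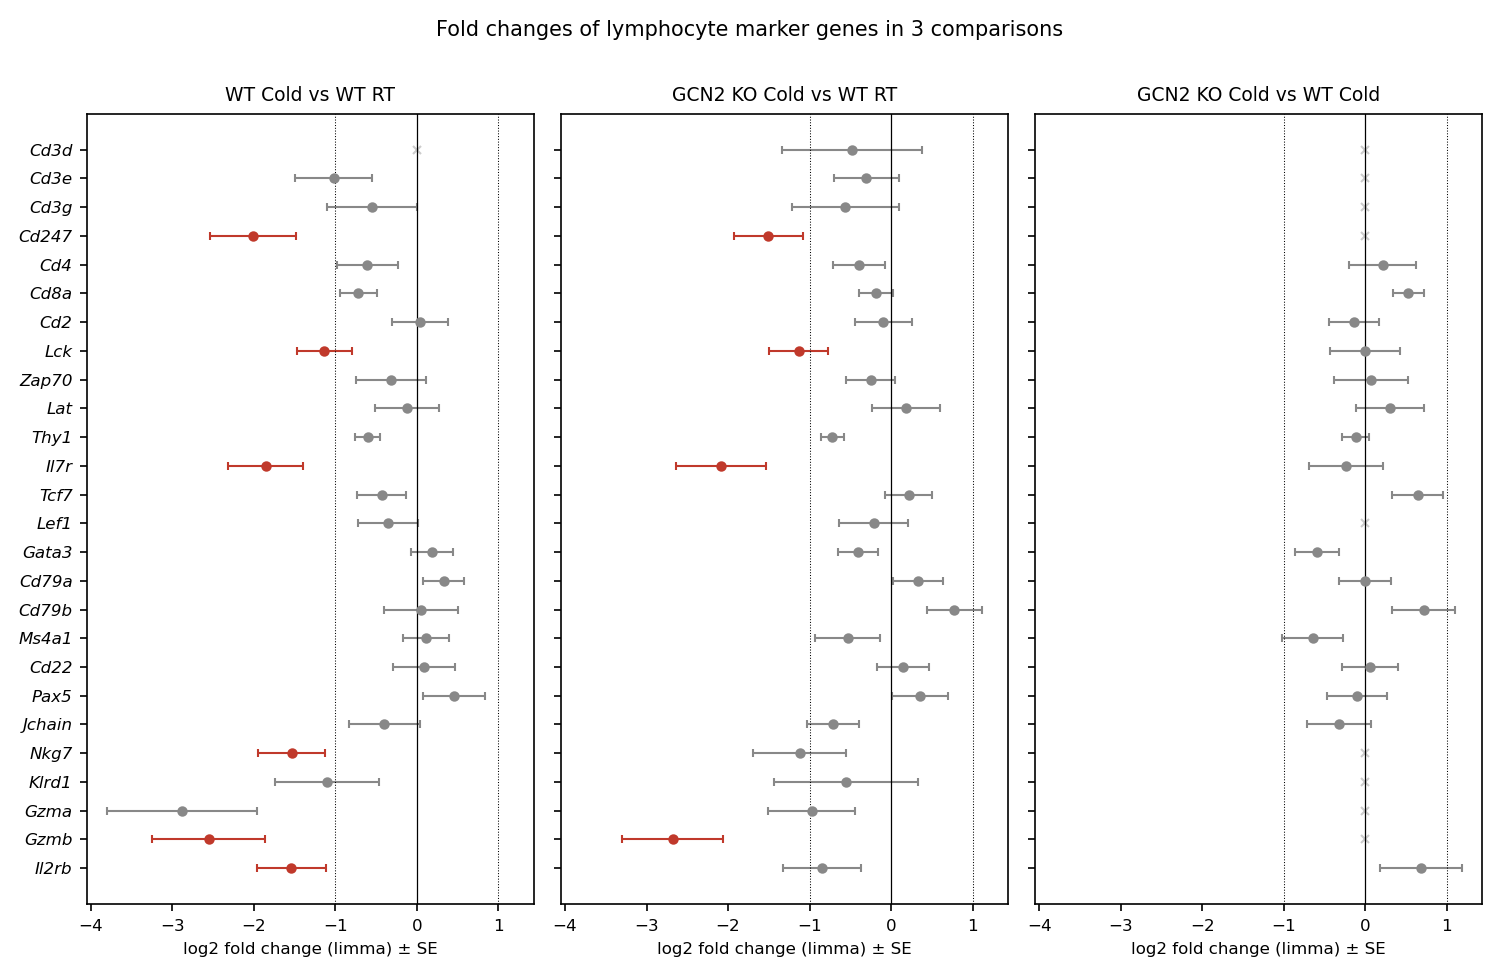
Log2 fold change (limma, log2(normalized count + 1)) with its SE for each lymphocyte marker gene in the 3 comparisons; red marks genes past both thresholds, dotted lines a log2 fold change of -1 and 1, and a pale cross at 0 a gene that the table does not list. In WT Cold against WT RT 6 genes are red, in GCN2 KO Cold against WT RT 4, and in GCN2 KO Cold against WT Cold 0.

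GCN2 KO Cold was also compared with WT RT, which differs from it in both genotype and temperature. Of 26 members tested, 4 were lower and 0 higher at both thresholds, beside 7.58% of all 16560 genes on the lower side and 3.01% on the higher, and 9.2% on the lower side among genes with a mean normalized count under 50. These were Cd247, Lck, Il7r and Gzmb, all of which were also called in WT Cold against WT RT. Both comparisons use the same 3 WT RT libraries, so they are not independent. The median log2 fold change of the members was -0.44, with 20 values below 0 and 6 above, beside 0.01 over all genes. The groups did not overlap for 7 members that were lower and for 1 that was higher, Cd79b, while 25.5% and 23.7% of all genes did so.

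Gzmb had 4, 3 and 12 reads under the label GCN2 KO Cold, below each WT RT library, and fell by 2.68 on the log2 scale (SE 0.62, limma adjusted p = 0.0115). Il7r had 10, 35 and 19 reads there and fell by 2.09 (SE 0.55, limma adjusted p = 0.0200). Cd247 had 8, 11 and 4 reads and fell to 34.1% of its mean in WT RT (limma adjusted p = 0.0263). Lck had 8, 16 and 16 reads and fell by 1.13 (SE 0.36, limma adjusted p = 0.0427), and DESeq2 did not call it (adjusted p = 0.0609). No library of these 4 genes overlapped between the groups. Thy1, with 181, 232 and 172 reads, passed the adjusted p alone (log2 fold change -0.72, SE 0.14, limma adjusted p = 0.00615), as 17.8% of all genes did on the lower side. Without WT RT B, Gzmb alone was called, beside 5.79% of all genes on the lower side, with a log2 fold change of -2.13 and a limma adjusted p of 0.0429.

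Of the NK and cytotoxic genes called in WT Cold, Gzmb was called in GCN2 KO Cold against WT RT as well, and Nkg7 and Il2rb were not. Nkg7 had 7, 24 and 5 reads under the label GCN2 KO Cold, and Il2rb had 14, 38 and 12. For both genes GCN2 KO Cold B lay within the range of WT RT, and the log2 fold changes of -1.12 and -0.85 had limma adjusted p values of 0.166 and 0.211. Klrd1 had 2, 25 and 9 reads, spanning those of WT RT A and C. Gzma had 10, 14 and 11 reads, the highest of which was above WT RT A (log2 fold change -0.97, limma adjusted p = 0.195). Single libraries bore on these values: without GCN2 KO Cold B the log2 fold change of Nkg7 was -1.72 and it was called (limma adjusted p = 0.0301), and without WT RT A that of Gzma was -1.55 and it was called (limma adjusted p = 0.0348). These misses do not show that WT Cold and GCN2 KO Cold differed in these genes.

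Of the other TCR complex genes, Cd3d, the delta chain, was listed in this table alone. It had 18, 18 and 5 reads in WT RT and 16, 12 and 1 in GCN2 KO Cold, with overlapping groups and a log2 fold change of -0.48 (SE 0.85). Cd3e had 12, 11 and 8 reads in GCN2 KO Cold and Cd3g had 6, 17 and 4, and both overlapped WT RT. Cd4 had 15, 21 and 12 reads, Cd2 14, 17 and 14, Zap70 14, 21 and 19, Lat 10, 22 and 12, and Lef1 10, 14 and 6. Cd8a and Tcf7 overlapped WT RT, with log2 fold changes of -0.18 and 0.22. Gata3 and Zap70 were lower without overlap, at -0.41 and -0.25 (limma adjusted p = 0.243 and 0.552). None of these genes passed the threshold.

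Among the B cell genes, Cd79b had 33, 37 and 41 reads in GCN2 KO Cold, and all 3 normalized values were above those of WT RT (log2 fold change 0.78, SE 0.34, limma adjusted p = 0.116). Cd79a had 51, 45 and 25 reads, Cd22 27, 26 and 21 and Pax5 18, 28 and 19, with the groups overlapping in each case. Ms4a1 had 24, 10 and 15 reads and a log2 fold change of -0.53 (SE 0.39). Jchain had 44, 53 and 35 reads against 127, 107 and 55 in WT RT, which was a log2 fold change of -0.72 (SE 0.32, limma adjusted p = 0.118), and without WT RT C it was called (-1.04, limma adjusted p = 0.0294).

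GCN2 KO Cold was compared with WT Cold to ask whether genotype mattered in the cold. The table listed 17 of the 34 members, and the TCR complex was not among them: Cd3e, Cd3g, Cd247, Lef1, Nkg7, Klrd1, Gzma and Gzmb had 42 to 60 reads over the 6 cold libraries, just under the 61 of the least covered gene listed. Of the 17 members, 0 passed with limma, edgeR or DESeq2, beside 0.257% of all genes in either direction with limma, 0.202% with edgeR and 1.3% with DESeq2. At an unadjusted p under 0.05 there was 1 member, and 15.3% of all genes passed that. The median log2 fold change of the members was 0.00, as it was over all genes.

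The member with the unadjusted p under 0.05 was Cd8a, with 110, 108 and 88 reads in GCN2 KO Cold and 88, 65 and 85 in WT Cold. Its groups did not overlap after normalization, and the log2 fold change was 0.53 (SE 0.19, limma adjusted p = 0.258). Tcf7 had 33, 27 and 40 reads in GCN2 KO Cold and 18, 28 and 25 in WT Cold, did not overlap after normalization, and had a log2 fold change of 0.64 (limma adjusted p = 0.385). Gata3 had 29, 28 and 23 reads against 43, 37 and 59, with each library labelled GCN2 KO Cold below each of WT Cold, at -0.59 (limma adjusted p = 0.365). These are 2 members without overlap on the higher side and 1 on the lower, beside 11.3% and 10.7% of all genes. The levels of Lck, 14.1 ± 4.93 and 14.0 ± 4.82 normalized counts (SD, n = 3), and of Cd22, 26.0 ± 2.79 and 26.1 ± 10.7, were close. By limma the largest difference in either direction was that of Cd79b (0.72, SE 0.39), and that of Il2rb was 0.68 (SE 0.50), neither of which passed. By edgeR and DESeq2 that of Il2rb was the largest, 0.84 with both, and did not pass.

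Some libraries were often the highest or the lowest of their group. WT RT B was the highest for 16 of the 26 members and for 41.1% of all genes, and WT RT C was the lowest for 16 members and 47.2% of all genes. GCN2 KO Cold B was the highest of its group for 15 (32.6% of all genes) and GCN2 KO Cold C the lowest for 14 (37.0%), whereas in WT Cold A was the highest for 12 of 25 (37.0%). These counts were not tested. The summed level of the NK and cytotoxic class was 10.8 CPM in WT RT B against 3.55 and 4.46 in WT RT A and C. WT RT B was also the highest in the sum of 20 pan-leukocyte genes, with 534.8 CPM against 334.3 and 290.8.

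The further lymphocyte genes outside the 34 were read from lists of the same cell types. Of 20 further T cell genes tested in WT Cold against WT RT, 4 were lower and 0 higher (median log2 fold change -0.58), beside 5.15% of all genes lower. Of the 20 genes 5 were above 0, 1 of them higher by the adjusted p alone, and the summed level was 98.6% of that in WT RT. The 4 lower genes included Gimap7, a small GTPase gene of lymphocytes (-2.55), Ly9, a SLAM family receptor (-2.28), and Ptpn22, a phosphatase that restrains TCR signalling (-1.96). Of 12 further NK and cytotoxic genes, 3 were lower, the chemokine gene Ccl4 (-2.76) and the adaptor genes Tyrobp (-1.28) and Fcer1g (-1.20), and the latter pair belongs to myeloid cells as well. Of these 12 genes 3 were above 0. Trac, the constant region of the TCR alpha chain, was chosen after its values were seen. It had 36, 33 and 34 reads in WT RT, 13, 17 and 3 for WT Cold and 23, 6 and 15 for GCN2 KO Cold, and in WT Cold it missed the threshold (limma adjusted p = 0.0593).

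Of 27 further B and plasma cell genes tested, 6 were lower and 0 higher in WT Cold against WT RT, beside 5.15% of all genes lower. The median was -0.09, with 13 of the 27 genes above 0. The 6 lower genes included Cd180, a toll-like receptor relative of B cells and macrophages, which had 165, 514 and 184 reads in WT RT and 29, 21 and 24 in WT Cold. Cd72, a B cell inhibitory receptor, had 103, 204 and 107 reads against 25, 23 and 24. The rest were Tnfrsf13b, a receptor for B cell survival factors, Bank1, a B cell scaffold gene, Btk, a kinase gene of the B cell receptor, and Ighm, the IgM heavy chain gene, whose log2 fold changes ran from -1.22 for Ighm to a fall of Tnfrsf13b from 50, 101 and 52 reads to 11, 16 and 14. None of these 6 genes overlapped between groups, while none of the 5 B cell genes among the 34 passed.

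In GCN2 KO Cold against WT RT, 4 of 20 further T cell genes (Ly9, Ptpn22 and Prkcq among them), 5 of 27 further B cell genes (Cd180 with a log2 fold change of -3.34, Tnfrsf13b, Cd72, Btk and Bank1) and 4 of 12 further NK genes (Ccl4, Ccl3, Tyrobp and Fcer1g) were lower, and 0 of each were higher. Of all genes 7.58% were lower, and 3, 11 and 2 genes of the T, B and NK lists were above 0. Prkcq, which skeletal muscle also makes, had 132, 112 and 80 reads in WT Cold and 51, 44 and 17 in GCN2 KO Cold, beside sums of the muscle genes of 3771, 3382 and 2255 CPM and of 1300, 994 and 322 CPM, and the part of muscle RNA in it was not tested. Of 7 type 2 innate lymphoid genes, 2 were lower in WT Cold, Hpgds and Il17rb, and 2 in GCN2 KO Cold, Il1rl1 and Hpgds. Between both cold groups 0 genes of these 4 lists passed with limma or edgeR, and DESeq2 called 1, Prkcq (log2 fold change -1.37). At an unadjusted p under 0.05 limma gave 1, 2, 1 and 1 genes of the T, B, NK and innate lymphoid lists. Of the lymph node and thymus list, kept to see whether such tissue was in the samples, 1 of 7 genes, Cxcl13, was higher in WT Cold, with WT RT as the reference (log2 fold change 1.20, limma adjusted p = 0.00314), while Ccl19, Ccl21a, Madcam1, Glycam1, Dntt, Rag1, Rag2 and Ptcra were listed in no table.

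**Figure D4:**
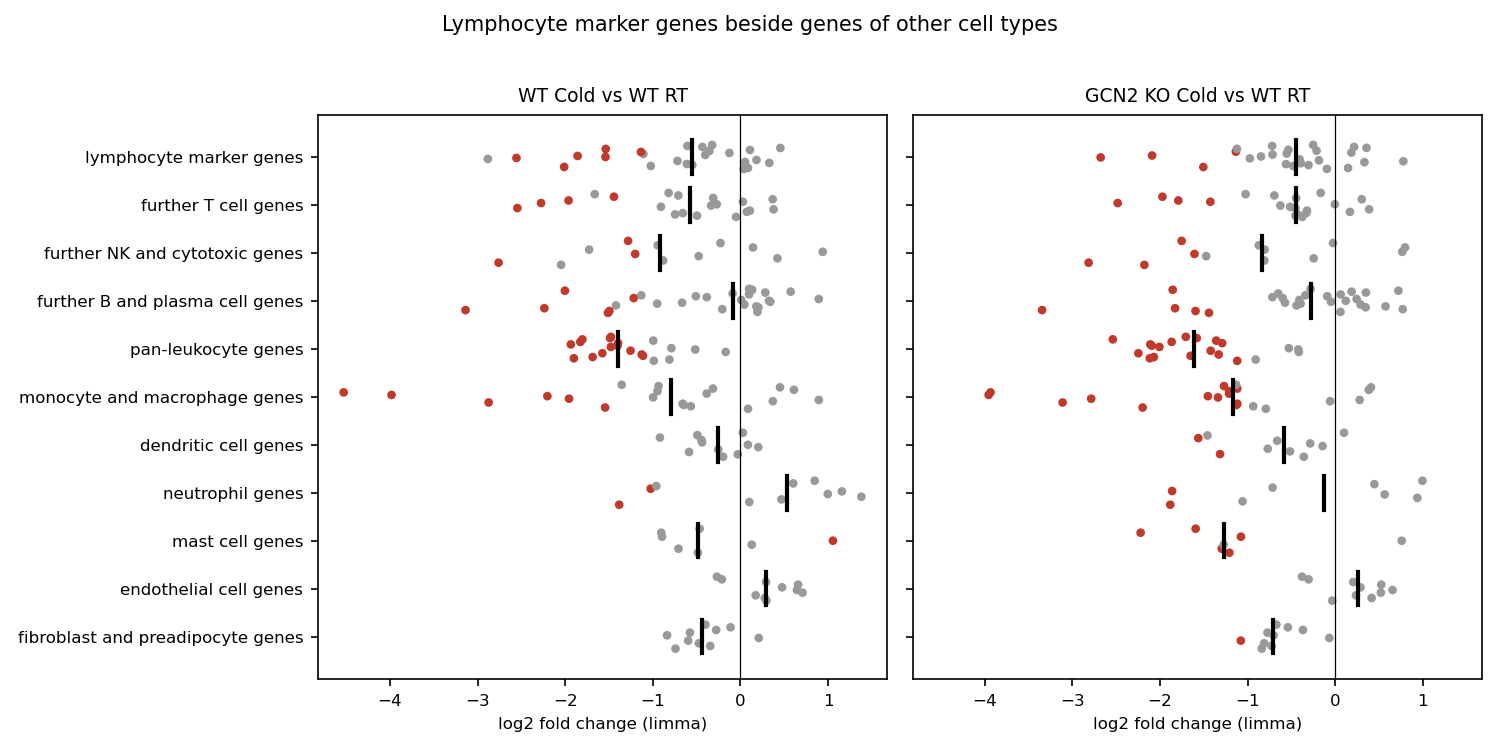
Log2 fold change (limma) of each tested gene of the lymphocyte marker list and of lists for other cell types, with WT Cold on the left and GCN2 KO Cold on the right, both against WT RT; each point is a gene, red past both thresholds, and the black bar is the list's median. The bar of the lymphocyte marker genes is at -0.55 and -0.44, that of the pan-leukocyte genes at -1.40 and -1.61, and the bar of the endothelial genes at 0.29 and 0.26, with genes on both sides of 0.

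Genes that all leukocytes share and part of the monocyte and macrophage genes were lower in the cold groups too. Of 20 pan-leukocyte genes, which leukocytes share, 14 were lower in WT Cold and 16 were lower in GCN2 KO Cold against WT RT, with 0 higher, and their median log2 fold changes were -1.40 and -1.61. Lcp1, an actin-bundling protein, had log2 fold changes of -1.93 and -2.11, and Cd48, a SLAM family ligand, of -1.90 and -2.12. Ptprc, which encodes CD45, had log2 fold changes of -1.83 and -1.87. The summed level of this list was 290.8 to 534.8 CPM in WT RT, 125.8 to 162.0 for WT Cold and 91.5 to 142.4 for GCN2 KO Cold. Of 20 monocyte and macrophage genes, 6 were lower in WT Cold and 13 were lower in GCN2 KO Cold, and the list summed to 624.2 to 955.1 CPM in WT RT, 415.2 to 574.5 for WT Cold and 314.2 to 402.3 for GCN2 KO Cold. The monocyte genes Ly6c2 and Ccr2 and the Fc receptor gene Fcgr1 had log2 fold changes of -4.53, -2.87 and -3.98 in WT Cold. Of the same 20 genes 5 were above 0 in WT Cold, 1 of them higher by the adjusted p alone, and the median was -0.80. In GCN2 KO Cold 3 were above 0, with a median of -1.17. The part of a shared change in leukocyte content in the values of the 34 genes was not tested.

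The lists for other cell types gave smaller counts on the lower side or counts on the higher side in WT Cold. In WT Cold against WT RT 0 of 10 endothelial, 0 of 10 fibroblast and preadipocyte, 0 of 11 dendritic cell, 0 of 12 skeletal muscle and 0 of 12 proliferation genes passed both thresholds, 2 of 10 neutrophil genes (Csf3r and Mmp9) were lower, while 7 had log2 fold changes above 0 and the median was 0.54, and 1 of 7 mast cell genes (Hdc) was higher, while 5 had values below 0, with a median of -0.49 and a sum at 74.0% of WT RT. Of 10 red cell and platelet genes 6 were higher, among them Hbb-bs (log2 fold change 1.77), and of 12 brown adipocyte genes the 3 higher were Ppargc1a (2.70), Elovl3 (1.17) and Ucp1 (1.02), while 5 were below 0 and the median was 0.17. Of the fibroblast and preadipocyte genes, 6 were lower in WT Cold and 7 in the GCN2 KO group at the adjusted p with no limit on the fold, with medians of -0.44 and -0.71 and sums at 73.3% and 54.4% of WT RT. Thy1, which fibroblasts also carry, was lower by the adjusted p alone in the same comparisons, and the part of fibroblasts in its values was not tested. In GCN2 KO Cold against WT RT, 11 of 12 skeletal muscle and 5 of 7 mast cell genes were lower, as were 2 of 8 neutrophil, 2 of 10 dendritic cell and 1 of 10 fibroblast genes, while 7 red cell and platelet genes were higher and 1, the platelet gene Pf4 (-1.36), was lower, 3 brown adipocyte genes were higher and 0 endothelial and 0 proliferation genes passed. In GCN2 KO Cold against WT Cold all 12 muscle genes had a lower level at an unadjusted p under 0.05. Of the lists in this paragraph limma called the muscle gene Myh7 alone (-3.34, adjusted p = 0.0483) and edgeR none (Myh7, adjusted p = 0.0533), while DESeq2 called 5 muscle genes (Mb, Myh1, Myh2, Myh7 and Ttn) and 2 mast cell genes (Mcpt4 and Tpsb2), all lower. The B cell class, at 111% and 105% of WT RT, lay beside a pan-leukocyte sum at 37.0% and 28.8%, a contrast between sums that was not tested.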

How the data were processed

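RNA from the brown adipose tissue of 9 mice was sequenced from oligo(dT)-selected libraries made with a kit that does not mark strand, so reads of genes that overlap on opposite strands cannot be told apart. The submitters' processing notes name Trimmomatic 0.36, STAR 2.5.2b, featureCounts (Subread 1.5.2), DESeq2 and GRCm39. For each of 3 pairs of groups the authors deposited a normalized signal for each gene in each library, that is, reads over the size factor of the library in that table. The deposited log2 fold changes and p-values of the authors were not used. All values (100%, tolerance 0.001 reads) were whole multiples of 1 step per library, so reads were recovered exactly, and the depth was 27058799 to 30768064 reads per library. Columns from samples outside this series numbered 0. Libraries were mapped to groups from the tables in which their codes occur, not to mice.

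Within each table the 2 groups were compared with limma 3.58.1 (R 4.3.3) on log2(normalized count + 1) with the variance following a trend in the mean and p-values adjusted by Benjamini-Hochberg over all genes. Genes were called below 0.05 in adjusted p and beyond 1 in log2 fold change on either side. The added 1 shrinks the log2 ratio of any pair of low values, although a mean of logs can still differ more between groups than the log of the means. edgeR 4.0.16 (quasi-likelihood test) and DESeq2 1.42.0 (without independent filtering) were run on the recovered reads. Levels over 3 groups are CPM of the recovered reads, and RPKM uses exon lengths of GENCODE M21. Tests were run on simulated counts with the same dispersion for every gene, so that check does not give their error rates for low and variable genes such as these. P-values measure the spread between these libraries.

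The members and lists were chosen with earlier results of these data known. All listed members are named. The rule for other lists took the called genes with the largest changes (at most 4 per list and comparison), or the 2 with the highest level where none was called. Not all genes that this rule takes are printed, and Bank1 and Ptprc in GCN2 KO Cold, Btk in WT Cold, Ighm, Mb, Pf4 and Trac fall outside it, having been picked with their values in view. Promoters are RefSeq sequences. Alternatives covered the tool, scaling, pseudocount (0.5 and 5), a minimum mean count (10 and 50), the trend, the groups in the fit, the fold threshold and each library left out in turn. One gene of the further T cell list is counted but not reported by name here.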

Additional observations from a re-analysis of the deposited data

How the results depend on the processing

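Il7r was called lower than in WT RT in both cold groups under most alternatives, and the counts of called members depended most on low counts and on single libraries. In WT Cold against WT RT 6 members were called, against 1 once genes with a mean under 50 normalized counts were dropped, 3 with all 3 groups in a fit of the genes that every table lists, and 1 with edgeR without WT RT B, and 1 to 6 when a library was left out. In GCN2 KO Cold against WT RT 4 were called, against 1, 2 and 1 under the same alternatives, and 1 to 4 when a library was left out. The first 2 of these alternatives test fewer genes and the third fewer libraries. For the other tools, scalings, pseudocounts and thresholds the counts ran from 5 to 7 and from 3 to 5. Of all genes 4.88%, 5.62% and 4.24% were called lower in WT Cold under the 3 named alternatives, and 7.1%, 10.1% and 6.18% in GCN2 KO Cold. With a library left out these shares were 3.95% to 6.94% and 5.79% to 7.79%. They were 4.83% to 6.12% and 7% to 10.7% for the other tools, scalings and pseudocounts, and 14.1% and 17.8% without a fold threshold. In GCN2 KO Cold against WT Cold 0 members were called under every alternative run, while the count over all genes was 42 with limma, 212 with DESeq2, 179 with all 3 groups in the fit, 6 without the trend, and 3 (without WT Cold B) to 22 (without WT Cold C) when a library was left out. Scaling to library totals moved the median log2 fold change of all genes by over 0.1 in the 2 comparisons with GCN2 KO Cold, to -0.12 against WT Cold and -0.19 against WT RT, with members at -0.11 and -0.63. It also moved the split of all genes called against WT RT from 499 higher and 1255 lower to 326 and 1769. Of the values for single genes 972 stayed the same, 47 no longer passed, 10 newly passed, 11 moved, and none reversed while called. The same means called in both fits with the same sign, or uncalled in both and within the SE of the main fit. Moved means uncalled in both and beyond that SE. The sign of an uncalled gene was not part of this rule and could differ. No paired analysis was possible because the columns carry no replicate numbers. Members with under 61 reads over the 6 libraries of a comparison were not tested in it, and most members had under 50 reads a library.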
